A study of Mus musculus with 4 samples.

Results

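The loci of 10 Krüppel-like factor genes, Klf2, Klf3, Klf4, Klf5, Klf6, Klf7, Klf9, Klf10, Klf12 and Klf13, were examined for open chromatin in mouse hematopoietic stem cells (HSCs) with and without the mediator subunit Med23. A locus was the gene body with 20 kb on each side. Every peak of the WT list or the KO list that overlapped such a window was taken. Merging the overlapping peaks of both lists left 42 regions at the 10 genes, out of 45475 regions genome-wide.

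The assay was ATAC-seq, which reads where a transposase could reach and cut the DNA, applied to HSCs of C57BL/6 mice sorted as LSK CD150+CD34-CD48- cells of the bone marrow according to the sample labels. The methods of the study give the gate as CD150+CD48- LSK cells, with 5000 cells per sample. The WT group (Med23floxp/flowp, 2 samples) carried the floxed gene without a recombinase, and the KO group (Mx1-cre;Med23floxp/flowp, 2 samples) carried the Mx1-cre transgene as well. Mx1-cre is switched on by interferon, here through poly(I:C) injection, and it acts in other blood cells as well as in HSCs. Beyond adult, no age is given for the mice, and whether the WT mice of this experiment received poly(I:C) or whether animals were pooled is not stated in the sources used here.

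Both samples of a genotype are represented by 1 shared peak list, so each value below is 1 number for WT and 1 for KO, with no replicate check and no test. There were 37919 peaks in WT and 37639 in KO, with a median summit pileup of 18 and 19. The pileup is the number of fragments or reads stacked at the summit of a peak, and the total depth of the libraries is unknown. A start site peak, one with its summit within 1000 bp of an annotated transcript start, was present in both lists at 4 of 8 HSC marker genes (Kit, Fgd5, Mecom and Hlf) and missing in both at Ly6a, Slamf1, Procr and Hoxb5. Start site peaks were missing in both lists at 2 of 2 B cell and 2 of 2 T cell markers, while 1 of 5 granulocyte and monocyte markers (Lyz2) and 1 of 4 stromal and endothelial markers (Col1a1) had one in both lists, with a further one at Cdh5 in WT and at Pecam1 in KO. At Med23 itself the start site pileup was 64 in WT and 85 in KO, and since this peak lies at the promoter it is no check of the deletion. An open site in part of the cells and a less open site in all of them cannot be told apart in bulk ATAC-seq.

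KLF proteins are transcription factors with zinc fingers at the C-terminus that bind GC boxes and CACCC boxes. Members with acidic activation domains mostly raise transcription, one group recruits the corepressor CtBP, and another recruits the corepressor Sin3A. In blood they are known for the quiescence and trafficking of lymphocytes, for monocyte differentiation and for erythroid gene control.

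The 10 KLF genes were open at their start sites in both genotypes. All 14 regions at a start of these genes themselves were called in both lists. Of them, 10 lay at the first start of a gene and 4 at alternative starts inside Klf3, Klf6, Klf12 and Klf13. Another 3 regions of the loci lay within 1000 bp of a start of a noncoding gene and are counted below as elsewhere. Among these, the region in Klf12, 609 bp from a Gm16260 start, was KO only. Genome-wide, among regions at a start of any gene, 83.9% were shared, 8.33% were WT only and 7.81% were KO only. A start site peak was present at 61.1% of protein-coding genes in WT and 60.8% in KO. At the first starts the WT pileup was 45 to 148 and the KO pileup 43 to 183. The lowest of them, at Klf4, still ranked at percentile 86.2 of the WT list and 83.4 of the KO list. Across the 12 of these start site regions with 1 peak of each list, the median pileup was 80.5 in WT and 76 in KO. Over all 13477 start site regions with 1 peak of each list it was 31 in both.

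**Figure D1:**
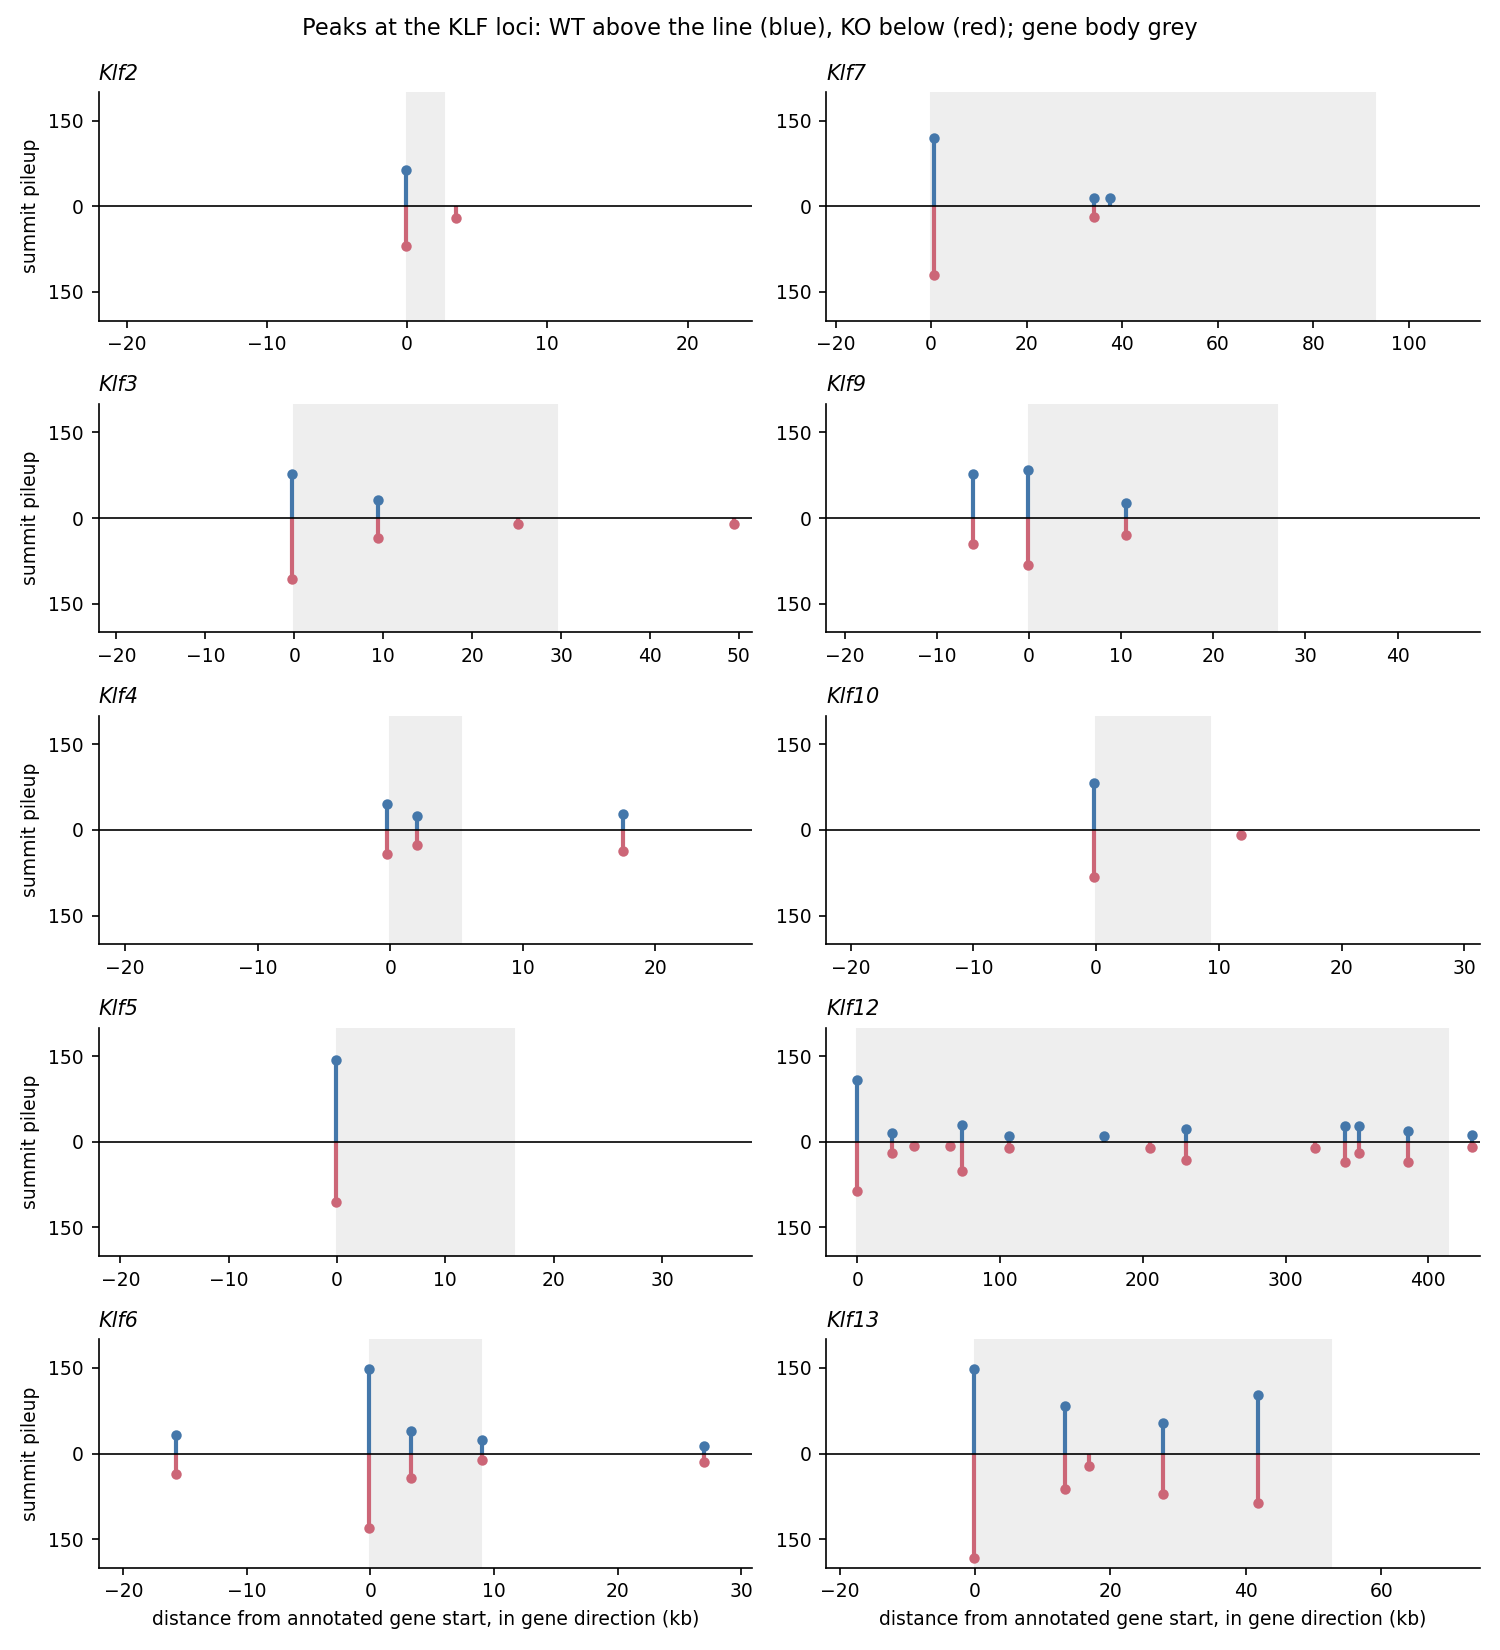
Summit pileup (vertical axis, fragments or reads) of every region at the 10 KLF loci against its distance from the annotated gene start in the direction of transcription (horizontal axis, kb), with the WT list drawn upward in blue, the KO list downward in red and the gene body in grey. The tallest stem of each locus stands at its start in both lists, and the stems present on only 1 side are short, with a pileup of 7 to 22.

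A sequence feature that is uncommon at start sites in general was shared by 3 of the KLF start sites. A match to the MEF2 motif, bound by the factors through which the Map2k5 and Mapk7 kinases act on Klf2, lay within 100 bases of the summit at 3 of 14 KLF start site regions, those of Klf2, Klf6 and Klf7, and at 0.760% of all 16443 start site regions. The sequences are shown on the strand of the gene, 5′ to 3′, from the mm10 reference, with the MEF2 match in capitals. The stretches at Klf2 (chr8:72318917-72319017, plus strand) and Klf7 (chr1:64121742-64121842, minus strand) are centred on the summit. The stretch at Klf6 (chr13:5861188-5861288, plus strand) is centred on the match, because the match lay further from the summit. None of them holds an annotated exon of its gene.
Klf2 start site: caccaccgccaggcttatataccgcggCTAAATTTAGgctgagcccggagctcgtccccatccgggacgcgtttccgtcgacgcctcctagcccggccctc
Klf6 start site: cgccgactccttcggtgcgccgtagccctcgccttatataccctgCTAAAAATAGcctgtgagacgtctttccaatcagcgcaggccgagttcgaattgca
Klf7 start site: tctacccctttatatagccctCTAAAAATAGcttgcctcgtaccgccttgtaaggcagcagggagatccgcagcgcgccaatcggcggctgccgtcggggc
The match began the same way, with CTAAA, at the 3 genes, and was identical over its whole length at Klf6 and Klf7. It lay 84 bp upstream of the nearest annotated start at Klf2, 244 bp upstream at Klf6 and 326 bp upstream at Klf7. A motif match is a description of the letters and does not show that a factor was bound.

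Presence away from the start sites leaned toward the KO list. Of the 28 regions elsewhere at the KLF loci, 17 (background 54%) were shared, 9 were KO only and 2 were WT only. The KO-only share was 32.1% at the KLF loci against 22.5% of all regions away from start sites, and the WT-only share was 7.14% against 23.6%. The background leaves out regions at a start of any gene, while the KLF count leaves out only starts of the KLF genes. By the background rule, 3 of the 28 would be start site regions. Together with the start sites, the loci had 31 of 42 regions shared, 9 KO only and 2 WT only, where the background over all regions was 64.8% shared, 17.2% KO only and 18.1% WT only. The 9 KO-only regions were spread over 5 genes, with 4 of them in the introns of Klf12, 2 at Klf3 and 1 each at Klf2, Klf10 and Klf13. The WT-only regions were introns of Klf7 and Klf12. At Klf4, Klf5, Klf6 and Klf9 every region was in both lists.

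These one-list regions were weak by q and by fold enrichment. Their pileup ran from 7 to 22 and their −log10 q from 2.48 to 6.11, and their fold enrichment ranked between percentiles 3.11 and 29.4 of their list. By pileup, the measure used for the start sites above, those at Klf13 and Klf2 ranked at percentiles 57.4 and 55.0 of the KO list. The count therefore concerns peaks near the limit at which peaks are called, where counting error alone can decide between a call and none. None of the 11 reached a −log10 q of 10. With that minimum in both lists, 4 other regions became KO only and 1 WT only, all of them at Klf6 and Klf12 and all shared before. Without Klf12, the longest locus, 28 regions were left with the start sites included, and these are not the 28 regions away from start sites. Of them, 5 were KO only (17.9%, background 17.2%) and 1 was WT only (3.57%, background 18.1%). The share away from start sites alone was not computed without Klf12.

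The KO-only regions with the highest pileup were at Klf13 and Klf2. Their fold enrichment was lower than the 5.65 of the KO-only peaks in 1 Klf3 intron and 2 Klf12 introns, and their local background was 5.27 at Klf13 and 4.79 at Klf2. In the intron of Klf13, 16.8 kb past the start, the KO peak had a pileup of 22 and a fold enrichment of 3.67 over its local background. Past the 3′ end of Klf2, 3.5 kb from the start and beyond the last exon, the KO peak had a pileup of 21 and a fold enrichment of 3.80. No WT peak was called at either place, and the pileup of WT cells there is not given by the list. Both are shown on the strand of the gene because they are the 2 one-list regions with a pileup of at least 20, with capitals marking an ETS match, read on the opposite strand, at Klf2 (chr8:72322458-72322558, plus strand) and a RUNX match at Klf13 (chr7:63922073-63922173, minus strand).
Klf2 downstream, KO only: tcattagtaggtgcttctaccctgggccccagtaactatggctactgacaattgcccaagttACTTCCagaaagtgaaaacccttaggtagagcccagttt
Klf13 intron, KO only: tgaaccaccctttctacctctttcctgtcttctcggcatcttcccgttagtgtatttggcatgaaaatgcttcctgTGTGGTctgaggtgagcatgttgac

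The height of the shared peaks was compared next, by the log2 ratio of the KO to the WT summit pileup minus the median of that ratio over all 28909 regions with 1 peak of each list. That median was 0.08 before it was taken out. At the 28 KLF regions with 1 peak of each list, the centred log2 ratio had a median of 0.05 (quartiles -0.29 and 0.29) and lay above 0 at 17, against 50% of all such regions by construction. Its SD over the 28 regions was 0.43, against 0.42 over all regions. A ratio at least 1.5-fold above the genome-wide median was found at 2 of 28 regions (background 7.64%) and one at least 1.5-fold below it at 2 of 28 (background 7.91%). The 95% exact binomial interval of the pileups, which covers counting error only, lay wholly above 0 at 1 region (background 1.91%) and wholly below 0 at 4 (background 1.54%). Such intervals narrow as the pileup grows, and these backgrounds were not matched for pileup. The median pileup of the 28 regions was 32 in WT and 40 in KO, against 22 and 23 over all such regions.

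**Figure D2:**
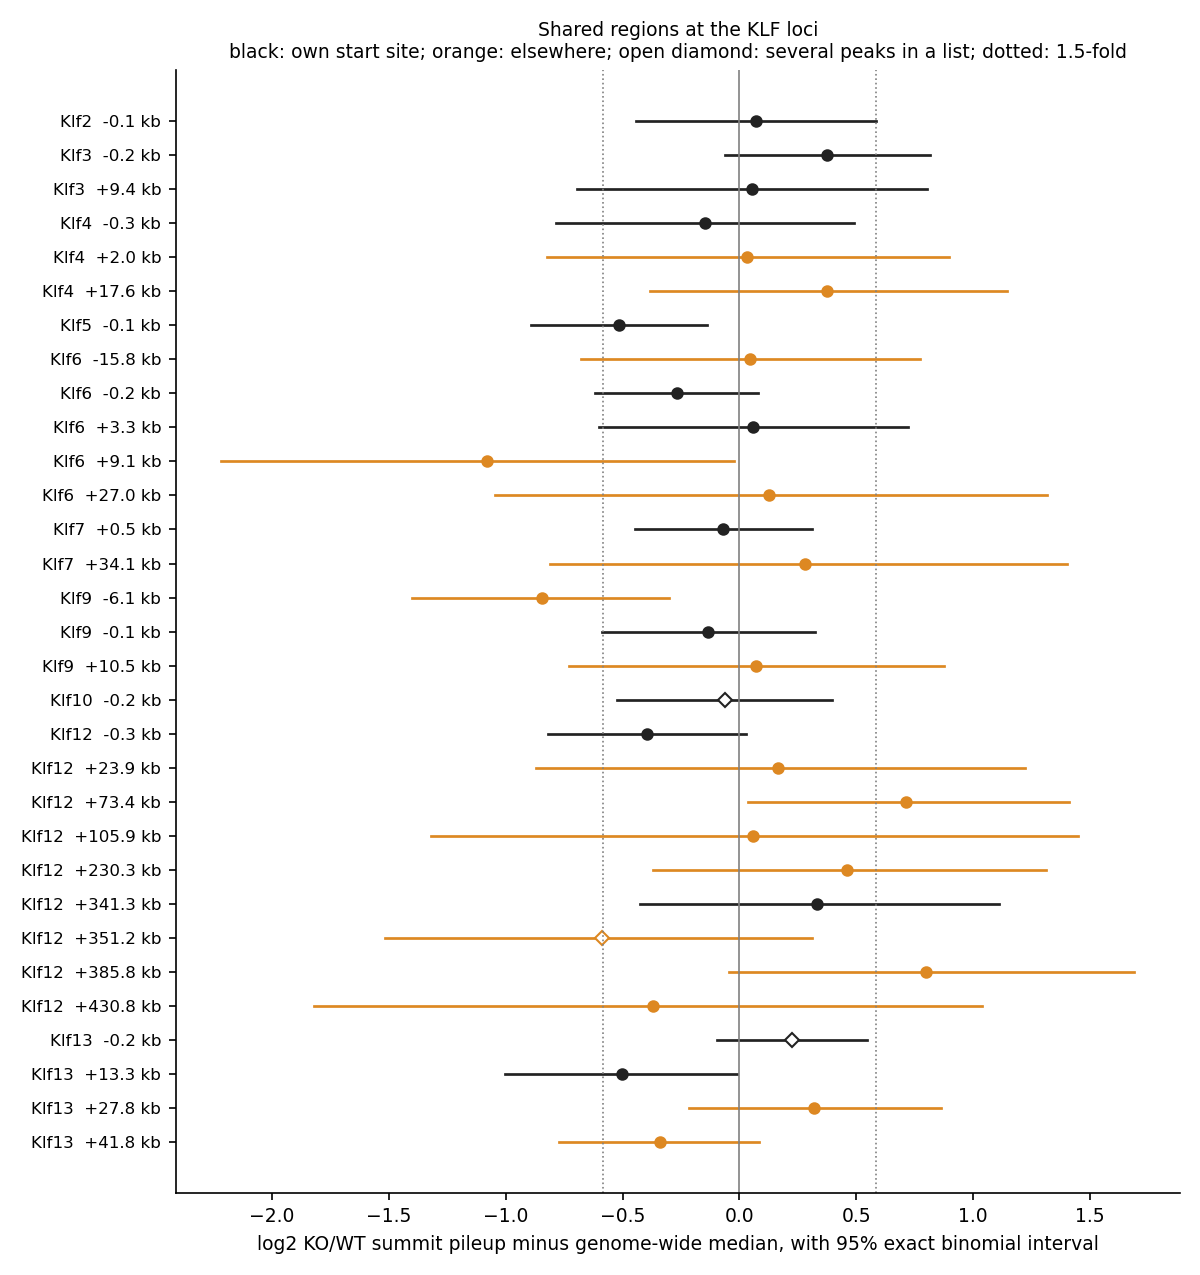
Centred log2 ratio of KO to WT summit pileup (horizontal axis) for the 31 shared regions of the KLF loci, ordered by gene and by distance from the gene start, with 95% exact binomial intervals as bars. Most intervals cross 0. Those of the Klf5 start, a region beside Klf6, the region upstream of Klf9 and the alternative start of Klf13 lie below it, and that of 1 Klf12 intron lies above it.

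Among the first starts, that of the activator Klf5 was the 1 whose interval left out 0. Klf5, a factor of proliferating epithelia, had a single region, chr14:99298261-99299598, with a pileup of 143 in WT and 106 in KO. Its centred log2 ratio was -0.51 (95% interval -0.89 to -0.14). The ratio of fold enrichment, which divides by the local background of each list, was smaller in size at -0.17. Here and below it is also a log2 ratio of KO to WT minus its own genome-wide median. Before centring, the fold enrichment itself was 13.6 in WT and 14.5 in KO. The local background was 9.56 in WT and 6.38 in KO. What part such background values have in this and the later ratios was not tested. Klf2, known for lymphocyte quiescence and trafficking, had 63 in WT and 70 in KO, a centred log2 ratio of 0.07 (-0.44 to 0.59). Klf4, a reprogramming factor that also drives monocyte differentiation, had 45 and 43 (-0.15, interval -0.78 to 0.49). Both starts lay within their counting intervals of the genome-wide median.

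Klf6, a broadly expressed and inducible factor, had 148 in WT and 130 in KO at its first start (-0.27, interval -0.62 to 0.08). Its closest relative Klf7, known from the nervous system, had 119 and 120 (-0.07, interval -0.45 to 0.31). Just past the 3′ end of Klf6, 146 bp beyond the gene, the peak at chr13:5870382-5870882 had 24 in WT and 12 in KO. Its centred log2 ratio of -1.08 (-2.22 to -0.03) was the lowest of the 28, on the smallest pileups among the regions whose interval left out 0. The ratio of fold enrichment was -0.51, short of 1.5-fold. The alternative start of Klf6, 3.3 kb into the gene, had 39 in WT and 43 in KO on a high local background of 16.5 and 11.3, so that its fold enrichment was only 2.29 and 3.59. At both other shared regions of the locus, 15.8 kb upstream and 27.0 kb past the start, the interval held 0.

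Klf3 and Klf12, the CtBP-binding repressors of the set, had starts that lay on opposite sides of the genome-wide median. Klf3, a repressor of CACCC box genes in erythroid and B cells, had 78 in WT and 107 in KO at its first start (0.37, interval -0.06 to 0.81). Klf12 had 108 and 87 (-0.39, interval -0.82 to 0.03). Neither interval left out 0. Inside Klf12, a gene of 414 kb with 14 regions, the centred log2 ratio was above 0 at 6 of 6 shared sites with 1 peak of each list. They were 5 introns and the alternative start 341.3 kb from the first. Genome-wide, 55.3% of such regions away from start sites and 43.9% of those at start sites were above 0. By the ratio of fold enrichment the lowest of these sites was at -0.07. The shared region past the 3′ end of Klf12 had a centred log2 ratio of -0.37. The intron peak 73.4 kb into the gene, chr14:100210806-100211657, had 30 in WT and 52 in KO (0.71, interval 0.04 to 1.41). The intron peak 385.8 kb into the gene, chr14:99898357-99899368, had 19 and 35 (0.80, interval -0.05 to 1.69). These were the only KLF regions at least 1.5-fold above the genome-wide median, and the ratio of fold enrichment put them at 0.46 and 0.56, short of that threshold. An intron region at 351.2 kb went the other way, with 1 WT peak of pileup 27 and 2 KO peaks of 15 and 19.

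Klf9, Klf10 and Klf13 belong to the members that recruit Sin3A. At Klf9, a gene induced by glucocorticoids and thyroid hormone, the start had 85 in WT and 82 in KO (-0.13, interval -0.59 to 0.32), while the region 6.1 kb upstream, chr19:23134123-23136183, had 78 and 46. Its centred log2 ratio was -0.84 (-1.40 to -0.30). This region lies 243 bp from a start of the noncoding gene 2410080I02Rik, and which gene it serves was not tested. The local background around it was 10.4 in WT and 5.33 in KO, and the centred log2 ratio of fold enrichment was -0.16. Before centring, its fold enrichment was 6.91 in WT and 7.42 in KO. Klf10, a gene induced early by TGF-beta, had 82 in WT and 83 in KO at the start, from 1 WT peak of 2632 bp and 2 KO peaks. Klf13, known for the control of a T cell chemokine, had the tallest KO start of the set, with 148 in WT and 183 in KO (0.22, interval -0.10 to 0.55), again 1 WT peak against 3 in KO. The alternative start of Klf13, 13.3 kb into the gene at chr7:63925138-63926068, had 83 in WT and 62 in KO (-0.50, interval wholly below 0 with its upper end at -0.01). The other shared Klf13 introns had 53 and 70 at 27.8 kb and 103 and 86 at 41.8 kb, within their counting intervals. The nearest coding start to both is that of E030018B13Rik, at 5754 and 19766 bp. The region at 41.8 kb also lies 558 bp from a start of the noncoding gene Gm27252. Which gene they serve was not tested.

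The sequences at the summits of the regions away from start sites whose interval left out 0 are shown on the strand of the gene, with every match to the searched motifs, on either strand, in capitals. In the region beside Klf6 (chr13:5870490-5870590, plus strand) the capitals mark a RUNX match. In the region upstream of Klf9 (chr19:23135093-23135193, plus strand) they mark a RUNX match followed by an AP-1 match. The Klf12 intron (chr14:100211273-100211373, minus strand) held none.
Klf6 downstream, WT 24 and KO 12: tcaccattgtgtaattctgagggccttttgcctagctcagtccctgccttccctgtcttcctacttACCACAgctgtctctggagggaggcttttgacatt
Klf9 upstream, WT 78 and KO 46: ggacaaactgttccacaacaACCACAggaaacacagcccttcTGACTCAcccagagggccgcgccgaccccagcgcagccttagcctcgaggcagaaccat
Klf12 intron, WT 30 and KO 52: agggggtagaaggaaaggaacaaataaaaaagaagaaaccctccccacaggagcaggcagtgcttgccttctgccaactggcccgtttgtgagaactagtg

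As before, KLF start sites are those of the KLF genes themselves, and the backgrounds count starts of any gene. The backgrounds were not matched for pileup. At start sites, 0 of 12 ratios were 1.5-fold higher (background 3.95%) or lower (7.95%). There the interval lay above 0 at 0 (1.42%) and below 0 at 2 (2.16%). Elsewhere, 2 of 16 were 1.5-fold higher (10.9%) and 2 lower (7.88%), and the interval lay above 0 at 1 (2.35%) and below 0 at 2 (0.991%). The 12 start site regions with 1 peak of each list had a median centred log2 ratio of -0.10, with 5 above 0, where all start site regions had a median of -0.06 and 43.9% above 0. The 16 regions elsewhere had a median of 0.10, with 12 above 0, where all regions away from start sites had 0.06 and 55.3%. The KLF values thus lay on the same side of 0 as the genome. The 9 introns among them had a median of 0.28, with 8 above 0, and without Klf12 this was 3 of 4. No genome-wide share was computed for introns alone, so whether these counts are particular to the KLF loci was not tested.

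**Figure D3:**
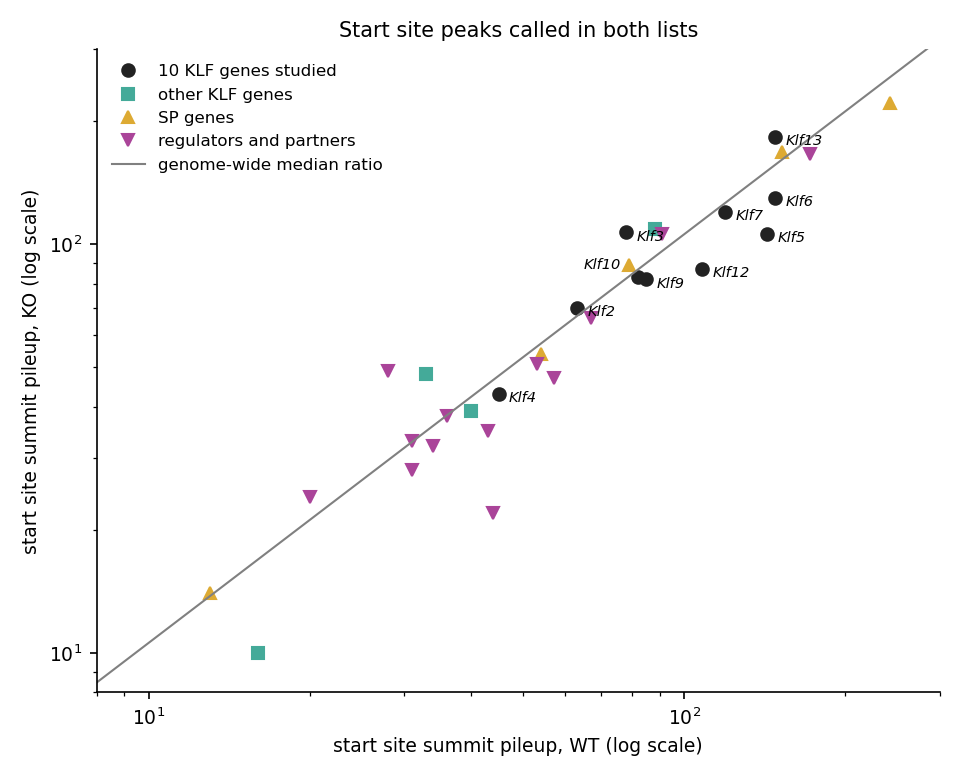
Summit pileup of the start site peak in KO (vertical axis, log scale) against WT (horizontal axis, log scale) for genes with a start site peak in both lists, with the genome-wide median ratio as a line. The 10 KLF genes sit at 45 to 148 in WT, with Klf2, Klf3 and Klf13 above the line and the other 7 below it.

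The bases covered by peaks differed little in sum. Peaks covered 37396 bases of the 10 windows in WT and 38644 in KO, which is 3.34% more, whereas genome-wide the KO peaks covered 1.46% fewer bases. With peaks of a −log10 q of at least 10 the direction turned, with a KO minus WT difference of -315 bases. Covered bases were higher in KO at 6 genes and lower at 4, against 49% and 50.9% of the 17663 protein-coding genes with a peak. The largest gain in bases was at Klf12, from 9100 to 10173, and the largest relative gain at Klf2, from 1085 to 1491, most of it from the KO-only peak past its 3′ end. The largest loss was at Klf4, from 3136 to 2601, where all 3 regions were called in both lists and the KO peaks were narrower. At Klf3 coverage went from 3015 to 3218, at Klf5 from 1159 to 1293, at Klf9 from 4306 to 4466 and at Klf10 from 2632 to 2784. It went from 3630 to 3502 at Klf6, from 2097 to 1996 at Klf7 and from 7236 to 7120 at Klf13. No KLF gene reached a 1.5-fold difference in either direction, while 9.15% of all genes were at least that much higher and 12.6% at least that much lower. The sum rests on Klf12: without it the difference was 175 bases in place of 1248.

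**Figure D4:**
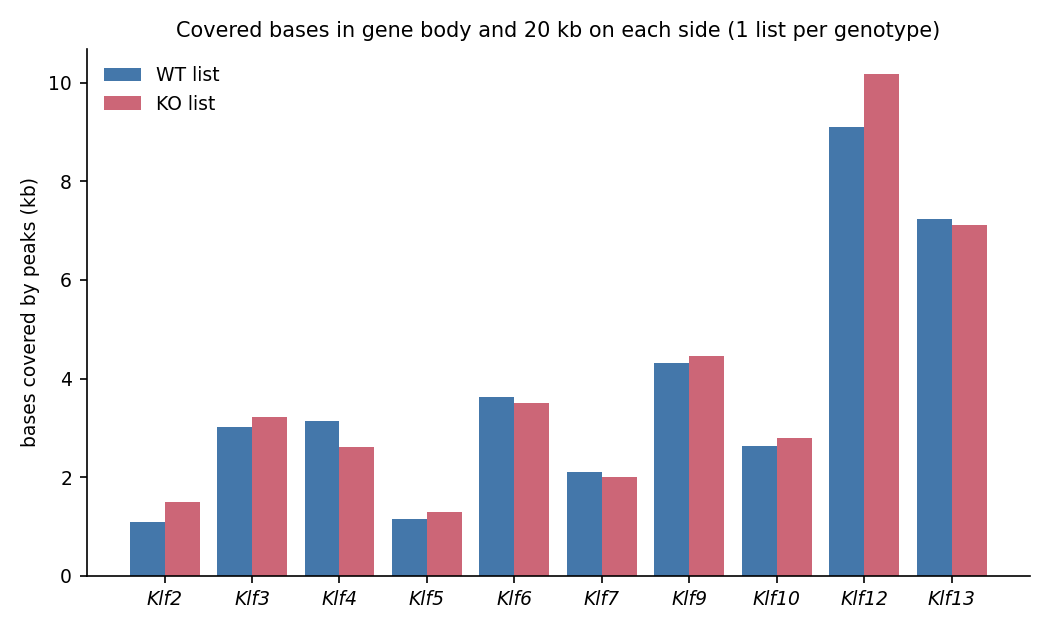
Bases covered by peaks (vertical axis, kb) in the gene body and 20 kb on each side of the 10 KLF genes, for the WT list (blue) and the KO list (red), 1 list per genotype. The bars of a gene stand close to each other, with the widest gap in bases at Klf12.

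Both strands of the DNA within 100 bases of each summit were also scanned for 10 other motifs. KLF regions at starts of noncoding genes count here as elsewhere. The GC box GGGCGG, a binding site of SP and KLF proteins, was found at 6 of 14 KLF start site regions (Klf2, Klf3, Klf4, Klf7, Klf10 and Klf13) and at 51.1% of all start site regions. The CACCC box, written as CACACCC, was found at 0 of 14 (all start sites 5.69%) and at 3 of 28 KLF regions elsewhere (all other regions 5.17%). The CTCF core AGGNGGC was found at 8 of 14 (31.7%) and 6 of 28 (17.2%). The GATA motif, spelled AGATAA, was found at 1 of 14 (3.69%) and 2 of 28 (11.8%), RUNX (TGTGGT) at 2 of 14 (10.7%) and 7 of 28 (26.2%), and ETS (GGAAGT) at 2 of 14 (22.1%) and 7 of 28 (31.8%). AP-1 (TGANTCA) was found at 1 of 14 (4.07%) and 1 of 28 (10.4%), the core of the CRE (TGACGT) at 0 of 14 (7.68%) and 1 of 28 (3.12%), and the E-box (CACGTG) at 2 of 14 (6.87%) and 1 of 28 (3.72%). The CArG box was found at 0 of 14 (0.785%) and 0 of 28 (1.12%), and MEF2 away from start sites at 2 of 28 (2.66%).

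The other genes of the family and its pathway were read the same way. Of the 7 other KLF genes, 4 had a start site peak in both lists (Klf8, Klf11, Klf15 and Klf16) and Klf1, Klf14 and Klf17 had none in either. Klf1, the erythroid member, still had 4 regions in its window, while Klf14 and Klf17 had none at all. Of the 9 SP genes, the nearest relatives of the KLF family, 5 had a start site peak in both lists, the tallest at Sp4 with 242 in WT and 222 in KO. The 13 regulators and partners all had a start site peak in both lists, with a centred log2 ratio above 0 at 4 (all start site regions 43.9%) and a median of -0.13. At least 1.5-fold from the genome-wide median stood 1 above it (background 3.95%) and 1 below it (7.95%). Srf, which binds the CArG box, had 28 in WT and 49 in KO (0.73, interval 0.03 to 1.45). Ctbp1, the corepressor of Klf3 and Klf12, had 44 in WT and 22 in KO (-1.08, interval -1.89 to -0.31). Mef2c, whose product binds MEF2 sites, had 172 and 166 at its start and 9265 bases covered in WT against 7565 in KO.

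Genes known as KLF2 targets in lymphocytes and endothelium were read last. S1pr1, the receptor that guides lymphocyte exit, had 46 in WT and 44 in KO (-0.15, interval -0.78 to 0.48). Nos3 had 27 in WT and 18 in KO (-0.67, interval -1.61 to 0.25). Both intervals held 0. Thbd had a start site peak of 36 in WT, while the KO peak of the same region had its summit further than 1000 bp from the start, and the bases covered in its window were 4093 in WT and 5211 in KO. Itgb7 had no start site peak in either list.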

How the data were processed

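ATAC-seq of sorted HSCs was deposited as 1 peak list for WT and 1 for KO, each named by both samples of its genotype. Per the methods of the study, Trim Galore trimmed the reads, Bowtie2 placed them on mm10, Picard took out duplicate and mitochondrial reads, and MACS2 without a fragment model gave the peaks. Versions and the pooling of replicates are not given in the sources used here. The deposited columns hold the authors' fold enrichment at the summit, a ratio of pileup to local background, the −log10 of p and q from the authors' caller, the summit offset and a display score, which was not used.

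The summit pileup and local background were recovered from the authors' fold enrichment and −log10 p under the Poisson model of the caller, with a whole number within a tolerance of 0.001 for 99.99% of peaks. Regions were unions of peaks overlapping by at least 1 bp on the 19 autosomes and chromosome X. Gene models were those of GENCODE M21, and reference bases were RefSeq GRCm38.p6, both of build mm10. Motifs were sought within 100 bases of a summit, and 101 bases are printed. The ratio was log2 of KO over WT pileup minus the genome-wide median, with exact Clopper-Pearson 95% intervals. Called meant 1.5-fold, since 1 list per genotype allows no test.

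The 10 genes and all lists were chosen with earlier results of these data known. Regions named singly were the start site of each gene, regions of 1 list with a pileup of at least 20, shared regions whose interval left out 0 and the 3 tallest shared regions. The Klf12 intron 385.8 kb into the gene and the region past the 3′ end of Klf12 were named after their values were seen. So were the Klf12 regions with 2 KO peaks and at Gm16260. The alternative start of Klf6, the remaining shared regions of Klf13 and Klf6, and the single genes of the other lists were also named then. The stretch at Klf6 centred on its match was also chosen then. Promoter entries of the RefSeq table were found for 8 of 10 genes. The scripts were tested on simulated data and used Python 3.11.15, pandas 2.3.3, numpy 2.4.6, scipy 1.17.1, pysam 0.24.0, bedtools 2.31.1 and matplotlib 3.10.9. Alternatives were other thresholds, windows, overlap rules and scalings. The erythroid marker list and part of the list of KLF2 targets are not reported here.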

Additional observations from a re-analysis of the deposited data

How the results depend on the processing

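With a minimum −log10 q of 5, there was 1 WT-only region at the KLF loci. A minimum of 10 removed all 11 one-list regions, made 1 shared region WT only and 4 shared regions KO only, and turned the covered bases of KO minus WT from 1248 to -315. With the top 30000 peaks of each list that difference was 539. With windows of 50 kb on each side it was 648, with 40 shared, 9 WT-only and 13 KO-only regions. Counting peaks as shared from 50% overlap of each gave 8 WT-only and 15 KO-only regions. Pileup over the genome-wide background, without centring, gave a median log2 ratio of 0.22, where the genome-wide median on the same scale was 0.17. Without Klf12, an alternative chosen after seeing the data, 1 WT-only and 5 KO-only regions and a difference of 175 bases were left. The cause of these shifts was not tested beyond what each setting removes. Of the 28 single ratios, the ratio of fold enrichment kept the sign of 24 and 0 of the 4 past 1.5-fold. The ratio without centring kept 25 signs and all 4, and put 1 more past 1.5-fold. Its signs were taken against 0 and not against its genome-wide median of 0.17. Centring on start sites kept 28 signs and all 4. The count of regions in both lists stayed within 1.5 times under every setting run. No paired analysis was possible because both replicates of a genotype share 1 list, and for the same reason no replicate could be left out. The lists give no pileup where no peak was called, so the size of a one-list difference is unknown.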

Other observations

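The letters TATATA stood 5 or 6 bases before the MEF2 match at the start sites of Klf2, Klf6 and Klf7, on the strand of the gene, in the stretches printed above. This was noticed after the sequences were seen. The 6 letters were found in 0.906% of the same windows around the summit at all 16443 start site regions. Of the 125 start site windows with a MEF2 match, 6 had TATATA within 20 bases of it, and 2 of these 6 were Klf2 and Klf7, since that of Klf6 falls outside its window around the summit. The letters are given as a description, with no test.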
